A study of Mus musculus with 6 samples.

Results

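The genes described are 10 immediate early genes: the FOS family members Fos, Fosb and Fosl2, the JUN family members Jun, Junb and Jund, the zinc finger factor Egr1, and Ier2, Atf3 and Zfp36. They were chosen by symbol, and 10 of 10 were found among the 33017 genes of the count table. Egr1 is the single EGR factor among them, and Ier2 and Zfp36 belong to neither the AP-1 nor the EGR family. Poly-A selected RNA of frozen mouse small intestine was sequenced from 3 libraries labelled model and 3 labelled control. According to the series title, the subject is immune disorder of the gut caused by radiation combined with simulated microgravity, and the design text refers to the effect of both factors together. The labels used here give no strain, sex, age, dose, exposure time or gut segment, and no library is labelled as given the compound of the title. The comparison therefore asks whether these transcripts differed between model and control intestine.

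Immediate early genes are transcribed within minutes of a stimulus, from factors such as SRF, ELK and CREB that are already present in the cell and are switched on by kinase cascades. FOS and JUN proteins pair through leucine zippers to form AP-1, which binds DNA and changes the transcription of later genes, while EGR1 binds GC-rich sites. Most of their mRNAs are short-lived, so that levels follow recent signals, among them growth factors, tissue injury, radiation and the handling of tissue. In the gut, AP-1 is known for roles in crypt proliferation, wound repair and inflammation.

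Promoter sequence is shown for 4 of these genes. Fos and Zfp36 had among the most alike levels over the libraries, Junb was the one member whose groups did not overlap, and Jun is known to respond to its own product through a variant AP-1 site. The windows are the 150 bases before the transcription start given by RefSeq, from GRCm38.p6, a build other than that of the counts, written 5′ to 3′ on the gene's strand. Capitals mark matches to any of 6 motifs, searched on both strands: TGACG (the core of sites bound by CREB and ATF factors), TGACATCA (the variant AP-1 site), TGANTCA (the AP-1 site, N being any base), TATAAA, GCGGGGGCG (an EGR site) and the CArG box of SRF. The windows lie at chr12:85473740-85473889 (plus strand) for Fos, chr7:28379229-28379378 (minus) for Zfp36, chr4:95052223-95052372 (minus) for Jun and chr8:84978749-84978898 (minus) for Junb.
Fos: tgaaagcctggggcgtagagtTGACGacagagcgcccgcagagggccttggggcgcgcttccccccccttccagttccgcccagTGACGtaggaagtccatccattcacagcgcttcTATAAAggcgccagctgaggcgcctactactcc
Zfp36: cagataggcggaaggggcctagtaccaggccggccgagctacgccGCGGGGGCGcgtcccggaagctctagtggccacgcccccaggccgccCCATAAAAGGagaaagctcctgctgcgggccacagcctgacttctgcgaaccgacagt
Jun: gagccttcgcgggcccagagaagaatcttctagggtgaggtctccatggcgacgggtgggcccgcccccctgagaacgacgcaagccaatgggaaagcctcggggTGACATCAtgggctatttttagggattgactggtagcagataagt
Junb: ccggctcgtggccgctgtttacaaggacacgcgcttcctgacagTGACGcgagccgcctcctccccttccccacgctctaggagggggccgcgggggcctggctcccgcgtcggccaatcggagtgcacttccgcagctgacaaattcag

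The Fos window holds TGACG at 129 to 125 and again at 66 to 62 bases before the start, and TATAAA at 33 to 28 bases. The Zfp36 window holds a CArG box at 58 to 49 bases and GCGGGGGCG at 105 to 97 bases. The Jun window holds TGACATCA at 45 to 38 bases, and the Junb window TGACG at 106 to 102 bases. Of the 10 members 8 had an entry in the promoter table, all but Egr1 and Ier2. TGACG was found in 4 of these 8 windows (Atf3, Fos, Fosb and Junb), against 13.3% of the 32851 windows of the same length in the table. GCGGGGGCG was found in 3 of 8 (Fosb, Fosl2 and Zfp36), against 2.09%, and the CArG box in 1 of 8, against 0.916%. TGACATCA was in 1 of 8, against 2.32%, and TATAAA in 1 of 8, against 7.57%. TGANTCA was in 0 of 8, against 4.24%. The motifs were chosen with these windows in view, and a match is a description of letters.

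Library totals lay between 35007515 and 45285564 counts, and 15904 genes had enough counts to be tested. All 10 members were among them. Expression is given as CPM, the counts of a gene relative to its library's total after scaling by TMM, a method that takes most genes as equal between libraries. The scaling factors ran from 0.826 in model 1 to 1.17 in control 3, so CPM in model 1 are raised and those in control 3 lowered relative to plain totals. Epithelial markers of the labelled tissue, Vil1 and Epcam among them, summed to 10801 to 15709 CPM in the 6 libraries. Fabp2, an epithelial marker of the same list, was listed at 0 in all 6 libraries. The reason was not tested, so a gene listed at 0 is not read here as absent from the tissue. Single libraries stood apart in other tissue markers. Pancreatic acinar markers summed to 6362 CPM in model 3 and to 13.0 to 43.9 CPM elsewhere, and B cell markers summed to 211 CPM in model 3 and 342 CPM in control 3, against 13.4 to 46.9 CPM in the other 4 libraries. Whether each library is a separate animal is not stated in the labels, so p-values reflect only library-to-library spread, part or all of which may be technical.

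None of the 10 immediate early genes passed the test between model and control intestine. Fold changes were above 0 for 8 of them and below 0 for Fosb and Atf3, but above 0 for 7 with upper quartile scaling and for 5 with scaling by library size alone. Sizes ran from -0.90 for Atf3 to 0.53 for Fos on the log2 scale. The median log2 fold change was 0.23, beside -0.02 over all tested genes, of which 48.2% were above 0. edgeR's quasi-likelihood test called 0 of 10 members at an adjusted p under 0.05, and 0 of 10 had an unadjusted p under 0.05. Over all tested genes it called 0 (0%), with 4.81% at an unadjusted p under 0.05. DESeq2 also called 0 members, while it called 25 of all genes (0.158%), and limma-voom called 0 members and 0 genes (0%). In these whole-tissue samples fewer cells of a type and less RNA per cell cannot be told apart.

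**Figure D1:**
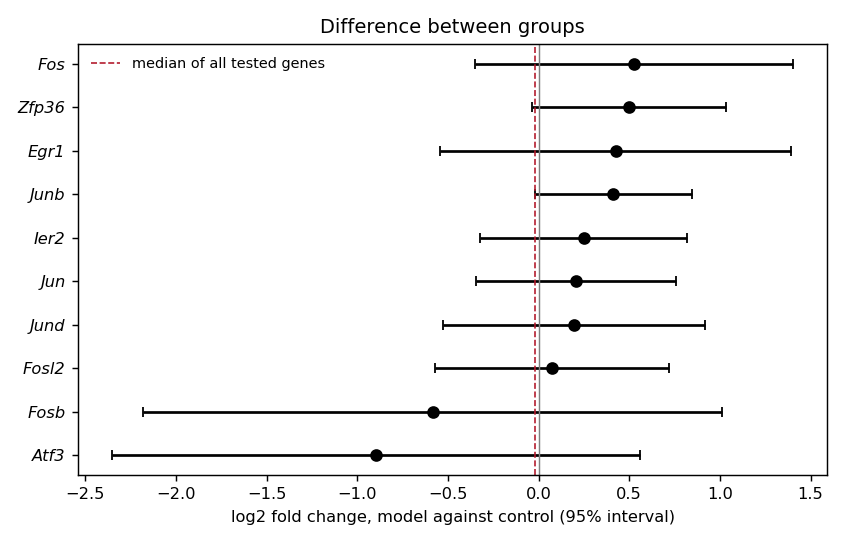
Log2 fold change of each member, model against control, from edgeR's quasi-likelihood fit (points) with its 95% interval (bars). The dashed line is the median of all tested genes at -0.02. Every interval includes 0, and those of Junb and Zfp36 are the closest to leaving it out.

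Fos, an AP-1 subunit and the textbook immediate early gene, had 176, 75.8 and 145 CPM in model 1, 2 and 3 and 107, 110 and 57.3 CPM in control 1, 2 and 3. Model 1 and model 3 were above all control libraries, and model 2 lay within the control range. The means were 132 ± 51.3 CPM in model and 91.7 ± 29.8 CPM in control intestine (SD, n = 3 each). This is a log2 fold change of 0.53 (SE 0.38), with a 95% interval from 0.785-fold to 2.65-fold. In a fit without model 2 it was 0.81, with scaling by library size alone 0.32, and without control 3 and model 1 together it was 0.01.

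Fosb, a close relative of Fos, had the lowest CPM of the members, at 1.28, 1.59 and 4.82 CPM in the model libraries and 5.30, 1.31 and 4.92 CPM in the control libraries. These CPM come from 37 to 169 counts in model and 49 to 254 counts in control libraries. Low and high libraries occurred in both groups, so that the groups overlapped over almost their whole range. Its log2 fold change was -0.59 (SE 0.68), and the interval ran from 0.221-fold to 2.02-fold. Without model 3 the log2 fold change was -1.42, and without control 3 and model 1 it was -0.06.

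Fosl2, which encodes FRA-2, an AP-1 subunit that is induced later and more lastingly than Fos, had the highest CPM of the members. It measured 208, 332 and 359 CPM in the model libraries and 269, 246 and 339 CPM in the control libraries. The lowest and the highest value were both in the model group, and the control values lay between them. The log2 fold change was 0.07 (SE 0.28), with an interval from 0.672-fold to 1.65-fold. Its sign turned with upper quartile scaling, with scaling by library size alone and without model 2, model 3 or control 2, and it was 0.42 without control 3 and model 1.

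**Figure D2:**
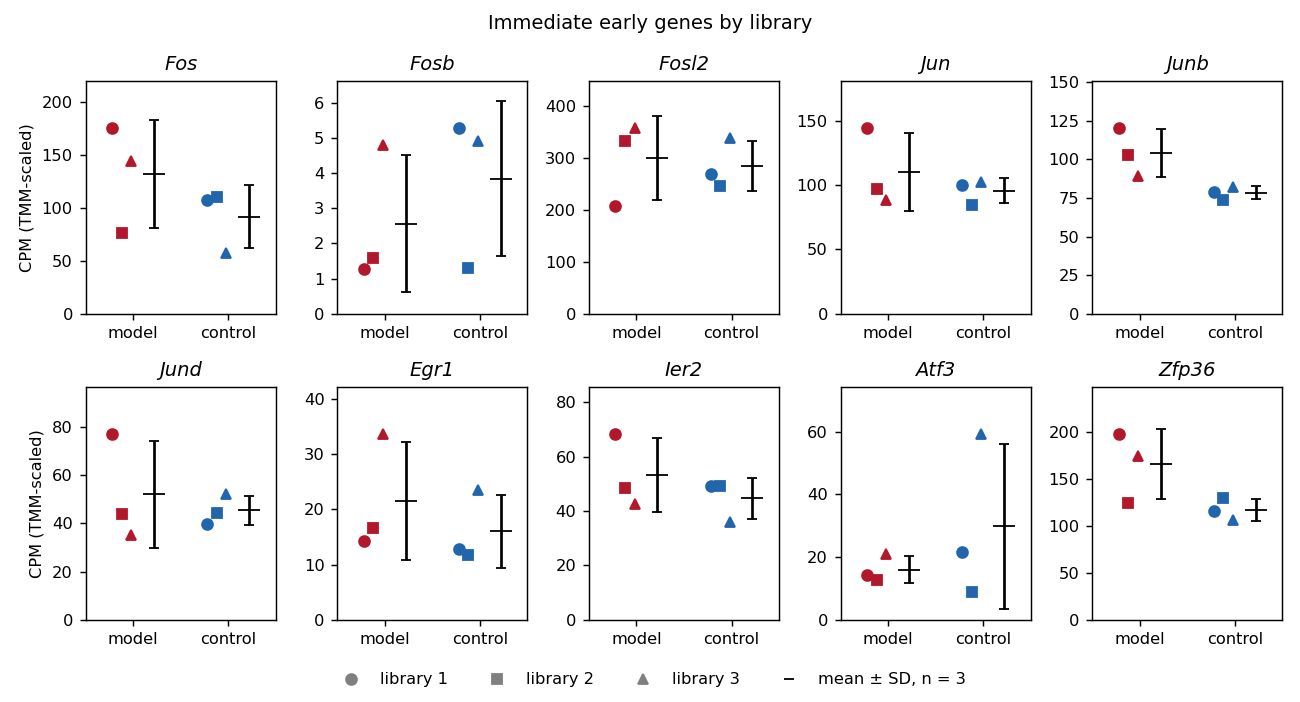
CPM (TMM-scaled) of the 10 members in each library, model left and control right. Circles, squares and triangles are libraries 1, 2 and 3 of each group, and the bars give the mean ± SD of 3 libraries. Only the Junb panel shows groups that do not overlap.

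Among the JUN genes, which encode the partners of FOS proteins, Junb had the smallest spread. Junb measured 121, 103 and 89.4 CPM in the model libraries and 79.0, 73.7 and 82.2 CPM in the control libraries. All 3 model libraries lay above all 3 control libraries, with means of 104 ± 15.7 CPM in model and 78.3 ± 4.28 CPM in control intestine (SD, n = 3 each). Its log2 fold change was 0.41 (SE 0.18), with an interval from 0.987-fold to 1.80-fold, and edgeR gave an unadjusted p of 0.0587 and an adjusted p of 0.85. DESeq2 gave an unadjusted p of 0.0491 and an adjusted p of 0.766. Junb was thus the 1 of 10 members with groups that did not overlap, beside 11.1% of all tested genes (4.73% with model higher). With scaling by library size alone Junb was at 99.6, 104 and 86.7 CPM in model and 83.6, 73.3 and 95.7 CPM in control libraries, and the groups overlapped, with a log2 fold change of 0.20. In the older mouse annotation GRCm38, Junb overlaps 351 bases of the peroxiredoxin gene Prdx2 on the opposite strand. Prdx2 had 4382 to 7835 counts in model and 3310 to 6994 counts in control libraries. Junb itself had 3136 to 4523 counts in model and 2758 to 3785 counts in control libraries. Since the strand setting is not given in the sources used here, reads in the overlap cannot be told apart.

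Jun, the JUN subunit best known as a substrate of the stress kinase JNK, measured 145, 97.1 and 88.3 CPM in the model libraries and 99.9, 84.4 and 102 CPM in the control libraries. Model 1 was highest, and the other model libraries lay within the control range. A log2 fold change of 0.20 (SE 0.24) resulted, with an interval from 0.786-fold to 1.69-fold, and it was -0.04 without model 1 and -0.026 with scaling by library size alone. In the GRCm38 annotation Jun overlaps an antisense gene, Junos, which had 79 to 242 counts in model and 216 to 286 counts in control libraries, against 3099 to 4280 counts of Jun in model and 3157 to 4787 in control libraries.

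Jund, the JUN subunit that many resting cells hold constantly, followed the same order of model libraries. It measured 77.1, 43.8 and 35.1 CPM in the model libraries and 39.9, 44.3 and 52.0 CPM in the control libraries. Model 1 was the highest and model 3 the lowest of all 6. The log2 fold change was 0.20 (SE 0.31), with an interval from 0.694-fold to 1.89-fold, and it was -0.20 without model 1 and -0.050 with scaling by library size alone. Jund overlaps an antisense gene, Gm11175, in the same annotation over 919 bases.

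Egr1, a zinc finger factor induced by growth factors through SRF, measured 14.3, 16.5 and 33.7 CPM in the model libraries and 12.7, 11.7 and 23.5 CPM in the control libraries. Model 3 and control 3 were the highest of their groups, and these are also the libraries with high B cell marker levels, whose part in Egr1 was not tested. The log2 fold change was 0.43 (SE 0.41), with an interval from 0.686-fold to 2.63-fold. Without model 3 it was -0.05, without control 3 it was 0.82, and with scaling by library size alone it was 0.22. Without control 3 and model 3 the groups did not overlap for Egr1 and Junb, beside 26.9% of all genes in that fit.

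Ier2, a short immediate early gene whose product acts in the nucleus, measured 68.5, 48.4 and 42.6 CPM in the model libraries and 49.1, 49.2 and 36.0 CPM in the control libraries. Only model 1 lay above the control range, and the log2 fold change was 0.25 (SE 0.24), with an interval from 0.799-fold to 1.77-fold. It was -0.11 without control 3 and model 1.

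Atf3, a stress-induced bZIP factor that can repress inflammatory genes, measured 14.4, 12.7 and 21.1 CPM in the model libraries and 21.5, 8.74 and 59.3 CPM in the control libraries. The model libraries all lay inside the control range, whose upper end was control 3 alone. The log2 fold change of -0.90 (SE 0.62) had an interval from 0.196-fold to 1.47-fold. Without control 3 it was 0.10, and without control 2 it was -1.32.

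Zfp36 encodes tristetraprolin, which binds AU-rich elements in the mRNAs of cytokines and of immediate early genes and speeds their decay. It measured 198, 124 and 175 CPM in the model libraries and 115, 129 and 106 CPM in the control libraries. Model 1 and model 3 lay above the control range and model 2 inside it. The means were 166 ± 37.7 CPM in model and 117 ± 11.6 CPM in control intestine (SD, n = 3 each). Zfp36 had a fold change of 0.50 (SE 0.23) on the log2 scale, with an interval from 0.976-fold to 2.05-fold, and edgeR gave an unadjusted p of 0.063 and an adjusted p of 0.85. The change was 0.29 with scaling by library size alone, and 0.68 without model 2, the model library inside the control range. There the unadjusted edgeR p was 0.0236 and the adjusted p 0.79, and 820 of 16534 genes had an unadjusted p under 0.05. Other left-out fits gave such an unadjusted edgeR p for Junb (0.0439 without model 3, where 590 of 16488 genes had one). With model lower, it was 0.0210 for Atf3 without control 2, where 991 of 16255 genes had one. Without control 3 and model 1, a pair chosen after seeing the data, it was 0.0201 for Egr1 and 0.0401 for Fosl2. In that fit 702 of 16010 genes had an unadjusted p under 0.05. With RLE scaling Junb had an unadjusted edgeR p of 0.0480, beside 758 of 15904 genes under 0.05. Zfp36 overlaps an antisense gene, Gm44710, over 1274 bases in the GRCm38 annotation.

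The members did not share 1 order of libraries. Model 1 was the highest of the 6 libraries for 6 of the 10 members (Fos, Ier2, Jun, Junb, Jund and Zfp36) and the lowest for Fosb and Fosl2. With CPM on plain library totals it was the highest for 4 of them, Fos, Ier2, Jun and Jund, and the margin for Jun was small, at 119.3 CPM in model 1 and 118.8 CPM in control 3. Control 2 was the lowest library for 4 members (Atf3, Egr1, Jun and Junb) on both scales. The highest library exceeded the lowest 6.79-fold for Atf3, 4.14-fold for Fosb and 3.07-fold for Fos, but 1.64-fold for Junb. Within groups the SD of Atf3 on the log2(CPM + 1) scale was 0.97 and that of Fosb 0.77, which put them at the 96.4th and 93.4th percentile of all tested genes. Fos and Egr1 stood at the 85.7th and 85.5th percentile, and Junb at the 12.9th, with an SD of 0.16 beside a median of 0.32 over all tested genes.

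**Figure D3:**
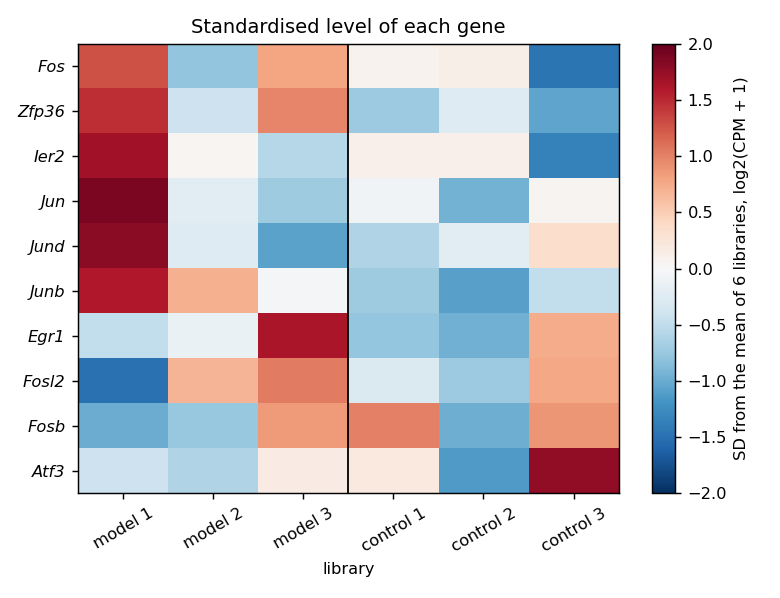
Level of each member in each library as log2(CPM + 1), standardised over the 6 libraries (colour, in SD from the gene's mean), with model libraries left of the line and control libraries right of it. Model 1 is dark red for Fos, Zfp36, Ier2, Jun, Jund and Junb and blue for Fosb and Fosl2, and control 3 is dark red for Atf3.

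Likeness was measured as the distance between standardised log2(CPM + 1) values over 6 libraries, which is 0 for the same pattern. Jun and Jund were nearest to each other, at a distance of 1.025, and Fos and Zfp36 followed at 1.07. Fosb was nearest to Atf3, at 1.515, and Egr1 to Fosl2, at 1.52. The farthest pair was Fosl2 and Ier2, at 4.30. Among 10962 other tested genes with a mean of at least 5 CPM, the 8 nearest to the mean pattern of the members were Letm2 (0.305), Slc7a7 (0.373), Ccng2 (0.441), Bin1 (0.49), Arf2 (0.529), Mgat1 (0.533), Selenop (0.561) and Lgals3 (0.592). Ccng2, for example, measured 232, 135 and 184 CPM in the model libraries and 131, 116 and 165 CPM in the control libraries. The nearest genes to single members were Gas2 to Fos (0.296), Gpsm1 to Fosb (0.452), Togaram1 to Fosl2 (0.329), Ddx41 to Jun (0.403), Nfkbib to Junb (0.208), Nup35 to Jund (0.262), S100pbp to Egr1 (0.437), Tgds to Ier2 (0.123), Ly86 to Atf3 (0.264) and Depdc7 to Zfp36 (0.178). With 6 libraries and this many candidates, near neighbours arise readily: the ranking without model 1 shared 0 of the 8 genes.

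Levels of different genes were compared as CPM per kilobase of exon, with exon lengths from GENCODE M21. The length counts every annotated exon base of a gene over all its transcripts, so it can exceed that of the mRNA present. The order of genes and the family shares below depend on these lengths. Fos was highest, at 56.2 ± 21.8 in model and 39.0 ± 12.7 CPM per kilobase in control intestine (SD, n = 3 each). Zfp36 came next, at 47.7 ± 10.9 in model and 33.7 ± 3.33 in control, and Junb at 45.3 ± 6.82 in model and 34.0 ± 1.86 in control. Fos exceeded Zfp36 in 4 of 6 libraries and Zfp36 exceeded Junb in 3 of 6, so their order lay within the spread, while Junb exceeded Jun in 6 of 6. Jun, Ier2, Fosl2 and Jund averaged between 29.2 and 32.2 CPM per kilobase over the 6 libraries and changed places among themselves. Below them Atf3, Egr1 and Fosb followed at 10.7, 4.18 and 0.513 CPM per kilobase, each exceeding the next in 6 of 6 libraries. Fosl2, with 9680 annotated exon bases, had the highest CPM of the members but rank 6 per kilobase.

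The make-up of the FOS family varied between libraries more than that of the JUN family. Fos made up 77.5%, 48.3% and 61.9% of the summed per-kilobase level of Fos, Fosb, Fosl1 and Fosl2 in the model libraries and 61.4%, 64.7% and 40.5% in the control libraries. Fosl2 held most of the rest, at 22.2%, 51.4% and 37.3% in model and 37.4%, 35.02% and 58.2% in control libraries, and Fosb held at most 1.31%. Fosl1, the fourth FOS gene, was too low to be tested. In the JUN family, Jun made up 30.1% to 31.6% in model and 31.1% to 34.97% in control libraries. Junb made up 36.4%, 44.0% and 44.3% in model and 38.3%, 37.7% and 36.1% in control libraries. The exact two-sided permutation test gave p = 0.3 for the Junb share (a difference of 4.22 percentage points) and p = 0.6 for the Fos share (7.05 points), where 3 against 3 libraries cannot go below p = 0.1. Over the 7 shares compared the exact permutation p lay between 0.3 and 0.8, so none passes any adjustment.

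**Figure D4:**
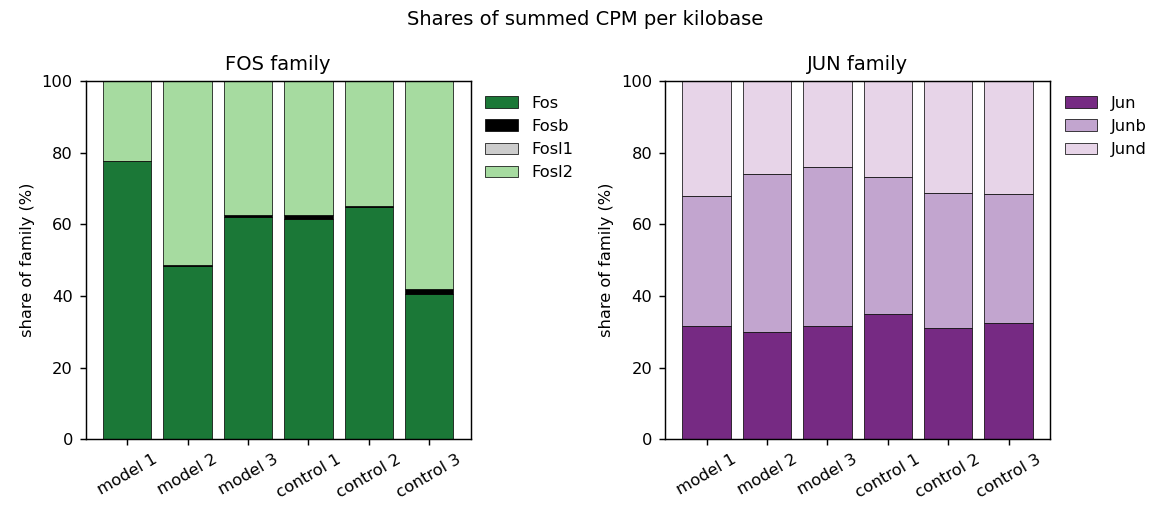
Share of each subunit in the summed CPM per kilobase of its family (percent), for the FOS family (left panel) and the JUN family (right panel), with the 3 model libraries left of the 3 control libraries in each. The Fos share is highest in model 1 at 77.5% and lowest in control 3 at 40.5%, while Jun holds 30.1% to 34.97% of its family in every library.

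Related genes of the same pathway were read from lists chosen with earlier results of these data known, so their counts and medians are descriptions. For these lists edgeR's quasi-likelihood test called 0 genes in each. Of 26 other immediate early genes 24 were tested, with 15 above and 9 below 0 and a median log2 fold change of 0.06. That median was 0.43 without control 3, 0.0043 without control 1 and -0.13 with scaling by library size alone. The most abundant were Mcl1, an anti-apoptotic gene, at 0.36 (SE 0.22), and the epithelial factor Klf4, at 0.45 (SE 0.25). Gadd45b, a stress gene, measured 20.5, 19.96 and 15.2 CPM in the model libraries and 10.9, 13.3 and 9.19 CPM in the control libraries. Btg1, an antiproliferative gene, measured 329, 166 and 287 CPM in model and 156, 154 and 166 CPM in control libraries. Gadd45b and Btg1 were the 2 genes of this list with an unadjusted edgeR p under 0.05 (2 of 24, beside 4.81% of all tested genes), and their groups did not overlap. In the whole list the groups did not overlap for 4 of 24 (16.7%, beside 11.1% of all tested genes), 3 with model higher and 1 with model lower.

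Egr2 and Egr3, EGR relatives named after their values were seen, were highest in control 3. Egr3 measured 0.277, 1.93 and 4.70 CPM in the model libraries and 1.81, 1.07 and 5.91 CPM in the control libraries. Egr2 measured 0.485, 1.68 and 1.74 CPM in model and 1.17, 0.695 and 3.02 CPM in control libraries. The B cell markers were also highest in model 3 and control 3, with Ms4a1 listed at 0 in all 6 libraries, and their part in these levels was not tested. Egr4, too low to be tested, was at 0.107 CPM in control 2 and at 0 in the other libraries, and Csrnp1 was listed at 0 in all 6 libraries.

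Feedback inhibitors, which switch the kinase cascade or its products off again, had 14 of 20 tested genes above 0 and a median of 0.15. The median was 0.27 without control 3, 0.061 without control 2, 0.070 without model 3 and -0.049 with scaling by library size alone. Dusp6, a phosphatase of ERK, stood at 0.25 (SE 0.24) on the log2 scale, and Errfi1, an inhibitor of EGF receptors, at 0.85 (SE 0.39). Dusp5, a nuclear ERK phosphatase, measured 35.2, 25.2 and 29.7 CPM in the model libraries and 22.5, 17.5 and 8.07 CPM in the control libraries. It was the 1 gene of the list with groups that did not overlap (5% of the list, beside 11.1% of all genes). Dusp1, the best known of these phosphatases and named after its values were seen, measured 23.7, 12.2 and 23.8 CPM in model and 20.9, 13.4 and 20.3 CPM in control libraries. Socs3, a cytokine feedback gene also named after its values were seen, was at 75.4 CPM in model 2 and 74.4 CPM in control 3 and at most 17.6 CPM elsewhere.

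The kinases and factors upstream had 10 of 24 tested genes above 0 and a median of -0.09. Mapk3, which encodes ERK1, differed by 0.23 (SE 0.28) on the log2 scale and its activator Map2k2 by 0.61 (SE 0.37). Map2k3, an activator of p38, had 0.43 (SE 0.22) and Creb5 -0.76 (SE 0.35). This median was 0.054 without model 1, 0.051 without control 3 and -0.28 with scaling by library size alone. Groups did not overlap for 5 of the 24 (20.8%, beside 11.1% of all tested genes), 3 with model higher and 2 with model lower. Other AP-1 and small MAF genes had 5 of 8 tested above 0 and a median of 0.14, with Mafk at 0.18 (SE 0.17), Mafg at -0.02 (SE 0.19), Maff at 0.50 (SE 0.30) and Atf2 at 0.24 (SE 0.18). Their median was -0.077 with scaling by library size alone.

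Among AP-1 target genes 11 of 15 tested were above 0, with a median of 0.16. It was 0.45 without control 3, -0.0056 without control 2 and -0.073 with scaling by library size alone. Vegfa, an angiogenic factor, measured 129, 159 and 131 CPM in the model libraries and 92.8, 114 and 77.7 CPM in the control libraries, while Cd44, an adhesion receptor, had a log2 fold change of -0.22 (SE 0.26). Areg, an EGF receptor ligand, measured 13.3, 21.6 and 26.1 CPM in model and 7.18, 12.3 and 3.06 CPM in control libraries. Vegfa and Areg did not overlap between groups, which was 13.3% of that list, beside 11.1% of all tested genes (4.73% with model higher). Timp1 was listed at 0 in all 6 libraries.

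The mRNAs known to be bound by tristetraprolin had 9 of 10 tested genes above 0 and a median of 0.37, although 5 of the 15 listed, among them Il6 and Cxcl1, were too low to test. Some tested genes were low too, with means of 1.33 CPM in model and 1.26 CPM in control for Tnf and 0.494 and 0.298 CPM for Il10. With limma-voom Tnf (-0.60) and Il10 (-0.20) fell below 0, while Ptgs2 turned from -0.19 to 0.10. The kinase gene Pim1 measured 45.8, 51.8 and 42.1 CPM in the model libraries and 31.6, 35.8 and 32.1 CPM in the control libraries. Plk3, another kinase gene, measured 30.5, 22.1 and 29.6 CPM in model and 17.7, 17.8 and 11.9 CPM in control libraries. With Vegfa, which stands in both lists, these were the 3 genes of the list with groups that did not overlap (30% of 10, beside 11.1% of all tested genes and 4.73% with model higher). The median was 0.20 with limma-voom, 0.18 with scaling by library size alone and 0.16 without model 2.

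Heat shock genes, listed as a mark of cell stress, were above 0 in 9 of 9 tested with a median of 0.42, and of 0.21 with scaling by library size alone. Hspa1b measured 115, 111 and 37.9 CPM in the model libraries and 7.82, 19.0 and 26.4 CPM in the control libraries, a value that reads shared with its near-identical copy Hspa1a make uncertain. Hsph1 measured 393, 345 and 281 CPM in model and 111, 174 and 180 CPM in control libraries. DESeq2 called both (adjusted p = 0.021 for Hspa1b and 0.048 for Hsph1), edgeR neither. For Hspa8, the most abundant, the log2 fold change was 0.57 (SE 0.29), and for Hsp90aa1 it was 0.42 (SE 0.24).

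Cell type markers that differed between libraries stand beside these values. Smooth muscle markers summed to 932 to 1249 CPM in model and 1241 to 2088 CPM in control libraries, and all 8 were below 0. Fibroblast markers summed to 405 to 1082 CPM in model and 436 to 1521 CPM in control libraries, and were low in model 1 and control 2. All 7 were below 0, as were all 9 tested B cell markers. Macrophage markers summed to 268 to 300.5 CPM in model and 168 to 363 CPM in control libraries. Mast cell markers summed to 23.6 to 49.0 CPM in model and 27.6 to 56.2 CPM in control libraries. Kit and Hdc held most of the mast cell sum and went opposite ways, each with groups that did not overlap. Cpa3 was at 0.313 to 0.647 CPM, and Mcpt4, Tpsb2 and Fcer1a were too low to be tested, so the sum is a weak measure of mast cells. The log2 fold change was -1.07 (SE 0.402) for Kit and 2.93 (SE 0.641) for Hdc. DESeq2 called Hdc (adjusted p = 0.0024) but not Kit, and edgeR called neither. T cell markers summed to 141 to 173 CPM in model and 99.0 to 132 CPM in control libraries, and all 7 tested were above 0. Groups did not overlap for 3 of these 7 (42.9%, beside 11.1% of all tested genes). Endothelial markers summed to 122 to 196 CPM in model and 92.7 to 217 CPM in control libraries, and neuron and glia markers to 26.6 to 43.9 CPM in model and 36.2 to 49.9 CPM in control libraries. The part of these cell types in the levels of the immediate early genes was not tested.

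**Figure D5:**
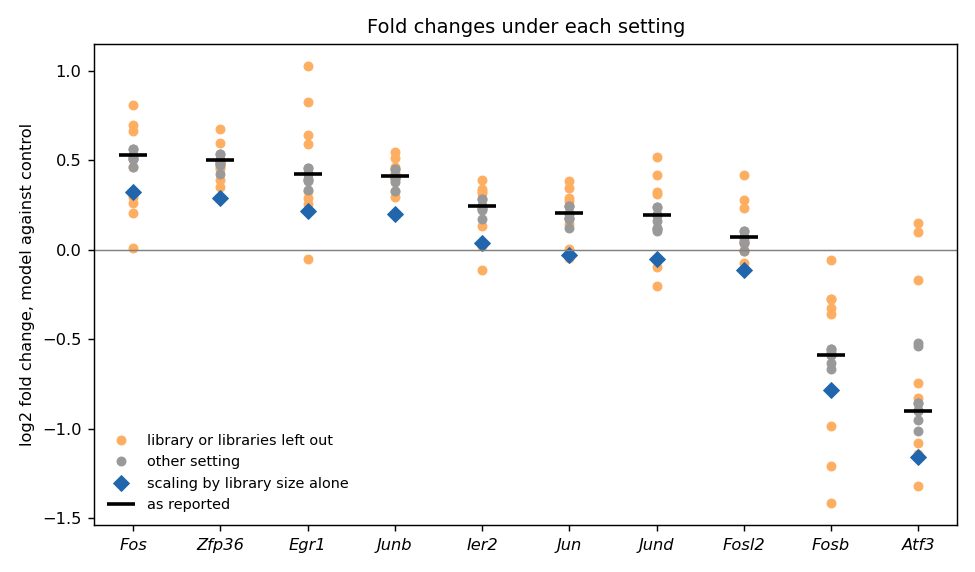
Log2 fold change of each member, model against control, as reported (black bars) and under each other setting (points), with blue diamonds for scaling by library size alone and orange points for fits without 1 or 2 libraries. Fos, Zfp36 and Junb stay above 0 and Fosb stays below 0 in every setting that gives a value, while Ier2, Egr1, Jun, Jund, Fosl2 and Atf3 have points on both sides.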

How the data were processed

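For the 6 libraries the authors deposited a single table of unnormalised counts per gene. The tools FastQC, Trimmomatic, STAR and featureCounts and the build GRCm39 are named, per the submitters' processing notes. Their versions and the annotation, strand and multi-mapping settings were not given in the sources used here. Columns were matched to samples by library name, and 0 were left unmatched. The members and lists were chosen with earlier results of these data known.

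Genes were kept by filterByExpr, scaled by TMM and tested with edgeR 4.0.16 (R 4.3.3) by the quasi-likelihood F test with robust dispersion and the group as the only term. p-values were adjusted by Benjamini-Hochberg over 15904 genes, with calls at 0.05. SEs were derived from each log2 fold change and its F value, and the 95% intervals from the SE and the degrees of freedom of the fit. DESeq2 1.42.0 and limma-voom (limma 3.58.1) were alternatives. The scripts were tested on simulated data with less spread between libraries than these, which does not show what effects could be found here. Library pairs within a group differed by a chi-square per degree of freedom of 111.7 to 543.4, so none was treated as a duplicate. Each list is described by the 2 most abundant genes and the 2 with the smallest p. Exon lengths came from GENCODE M21 and promoters from RefSeq, both GRCm38, matched by symbol.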

Additional observations from a re-analysis of the deposited data

How the results depend on the processing

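No member was called under any of the 17 alternatives, and with a replicate left out 0 genes were called in each fit. DESeq2 called 25 genes of all, against 0 with edgeR, and also called Hspa1b (log2 fold change 2.35) and Hsph1 (1.17). Scaling by library size alone moved the median of all tested genes to -0.21 and that of the members to 0.0063, and the members' median lay 0.22 above that of all genes, against 0.24 with TMM. With each of the 4 scalings 8 of 10 members lay above the median of all genes. A scaling shifts all genes nearly alike, so this count could hardly change with it. With 1 library left out the count ran from 6 (without model 1) to 9 (without control 3). The members' median then lay 0.16 (without model 1) to 0.42 (without model 3) above that of all genes. Without control 3 and model 1 it lay 0.099 above. With library size alone the sign turned for Fosl2 (-0.11), Jun (-0.026), Jund (-0.050) and Mafk (-0.017), and with upper quartile scaling for Fosl2 (-0.0078). Mafg turned to 0.016 with RLE scaling and with DESeq2. The number of members whose groups did not overlap was 1 with TMM, 0 with upper quartile scaling and 0 with library size alone. It was 1 to 4 with 1 library left out (4 without control 2, 3 without model 2, 2 without control 3), 2 without control 3 and model 3 and 4 without control 3 and model 1, where 16.4% to 33.8% of all genes did not overlap. With 1 library left out, the median of the members ran from 0.14 to 0.37. With 1 library, or either of 2 pairs of libraries chosen after seeing the data (control 3 with model 1 or with model 3), left out, Fosl2 ran from -0.073 to 0.42, Jun from -0.042 to 0.39, Jund from -0.20 to 0.52, Egr1 from -0.050 to 1.03, Ier2 from -0.11 to 0.39, Atf3 from -1.32 to 0.15, Mafg from -0.14 to 0.11, Mapk3 from -0.13 to 0.37, Dusp6 from -0.037 to 0.40 and Cd44 from -0.43 to 0.13. The cause of these changes was not tested.

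Replicate numbers gave no clear sign of pairing. The correlation of deviations from the group means across genes was -0.06, -0.31 and 0.33 for the same-numbered pairs. It ran from -0.41 to 0.55 for the other pairs. With 3 libraries per group these values depend on each other, so they cannot settle whether libraries were paired. With the replicate number as a block 0 genes were called, 537 genes had an unadjusted p under 0.05 against 765 without it, and the median of the members was 0.20. Fosb rests on 37 to 254 counts per library, so its counting error is the largest of the members.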
